A study of Mus musculus with 6 samples.

Results

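A set of 10 genes of the Polycomb repressive complexes was followed across METTL3 mutant and unmodified mouse embryonic stem cells. They are Ezh1, Ezh2, Eed, Suz12, Jarid2 and Mtf2 of Polycomb repressive complex 2 (PRC2), and Rnf2, Ring1, Bmi1 and Cbx7 of complex 1 (PRC1). The genes were chosen by symbol, and all 10 were found among the 24984 symbols of the count files and were among the 15663 genes that passed the filter on low counts. RNA had been measured in 2 libraries of a METTL3 knockout line made with CRISPR/Cas9 (KO), 2 libraries of a line in which the METTL3 D395A substitution had been introduced with CRISPR/Cas9 by homology-mediated end joining (D395A), and 2 libraries of unmodified cells (WT). METTL3 is the methyltransferase that places N6-methyladenosine (m6A) on messenger RNA, and D395A lies in its catalytic motif. All cells were of the line E14TG2a in the serum-free medium N2B27, and ribosomal RNA had been removed from total RNA before stranded libraries were made. No label names more than one line per mutant genotype or states how the 2 libraries of a genotype relate to each other (separate cultures or not). Genotype and history of a line cannot be told apart, and all p-values rest on the spread between libraries, which may be technical.

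Polycomb complexes keep developmental genes silent in embryonic stem cells through marks on histones. PRC2 methylates histone H3 at lysine 27 through EZH2 or EZH1, and needs EED and SUZ12 for activity and stability, while accessory subunits such as JARID2 and MTF2 bring it to CpG-rich promoters. PRC1 is an E3 ubiquitin ligase of histone H2A built on RNF2 (RING1B) or RING1 (RING1A) with one PCGF protein, and canonical PRC1 carries a CBX protein that reads the PRC2 mark, with CBX7 the main one known in mouse embryonic stem cells.

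Reads counted in genes numbered 35851584 and 35613626 in KO, 22859491 and 35784699 in D395A, and 40476809 and 36136543 in WT. Mettl3, the targeted gene, averaged 6.99 ± 1.17 CPM in KO and 22.2 ± 1.59 CPM in D395A, against 30.0 ± 2.17 CPM in WT (SD, n = 2 libraries each). Tox4 on the opposite strand overlaps 18.38% of the exon bases of Mettl3. CPM here means counts scaled to a common library size with TMM factors. Libraries of the same group were not copies of each other, since their counts gave a chi-square over its degrees of freedom of 6.48 in KO, 11.1 in D395A and 3.18 in WT. Genes on chromosomes 8 and 11 were lower in both mutant lines, with chromosome 11 medians of -0.42 in KO and -0.49 in D395A on the log2 scale, and Suz12 and Ezh1 lie on chromosome 11. The 8 pluripotency markers summed to 4793 and 4771 CPM in KO, 2017 and 2070 CPM in D395A, against 4082 and 4151 CPM in WT, with none at 0. Single markers went both ways in KO, with 4 called higher and 2 lower (Tdgf1 and Zfp42), and Sox2 and Esrrb were not called. Nanog alone averaged 1577 CPM in KO, against 920 CPM in WT. In D395A, 7 were lower and Sox2 was not called. Summed markers of extraembryonic endoderm (5 genes) reached 24.5 and 30.6 CPM in KO, 40.7 and 43.9 CPM in D395A, against 12.2 and 11.5 CPM in WT. Single endoderm markers went both ways, with 2 higher and 2 lower in each line, and Dab2 and Foxa2 were the higher ones while Gata4 and Gata6 were lower. Neural markers (5 genes) summed to 55.5 and 55.2 CPM in KO, 60.9 and 61.5 CPM in D395A, against 90.3 and 85.9 CPM in WT. In KO, 2 neural markers were lower and none higher, whereas in D395A Nes and Tubb3 were lower and Sox1, Map2 and Pax6 higher (median 0.43), opposite to the sum. Trophoblast markers (5 genes) summed to 4.41 and 5.07 CPM in KO, 11.2 and 10.1 CPM in D395A, against 4.97 and 4.58 CPM in WT (Elf5 was at 0 in KO replicate 2 and in both D395A libraries). Of the 4 trophoblast markers tested, none was called in KO, and Krt7 and Cdx2 were higher in D395A. Cdx2 averaged 2.91 CPM in D395A and passed the filter only through that group, so its call does not support a direction. Mesoderm markers (5 genes) summed to 1.91 and 1.82 CPM in KO, 2.09 and 1.83 CPM in D395A, against 7.60 and 5.21 CPM in WT. Of the 4 mesoderm markers tested, only T was called, and it was lower in both lines. T averaged 4.13 CPM in WT and passed the filter only through that group, so its call does not support a direction. Fibroblast markers (6 genes) summed to 7.39 and 7.35 CPM in KO, 3.62 and 3.41 CPM in D395A, against 5.95 CPM in both WT libraries (Col3a1 was at 0 in all KO and WT libraries, Postn in both KO libraries and D395A replicate 1, and Dcn in KO replicate 1 and both WT libraries). Of the 4 fibroblast markers tested, Thy1 was higher and Col1a1 lower in KO, and in D395A Dcn and Col3a1 were higher and Col1a1 and Thy1 lower. Dcn and Col3a1 averaged 1.28 and 0.574 CPM in D395A and passed the filter only through that group, so their calls do not support a direction. The part of these differences in the Polycomb results was not tested, and in bulk RNA fewer cells of a type and less RNA per cell cannot be told apart. Counts of markers called stand beside 66.2% of all genes called in KO against WT and 70.3% in D395A against WT.

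The core of PRC2 was lower in both mutant lines. Suz12, Ezh2, Eed and Ezh1 each fell in KO and in D395A, and Cbx7 of PRC1 fell with them. Jarid2 and Mtf2 were lower in D395A and slightly higher in KO than in WT. Rnf2, the main catalytic subunit of PRC1, changed least, whereas Ring1 and Bmi1 rose in D395A. In edgeR's quasi-likelihood test of KO against WT, 3 members were higher and 6 lower at an adjusted p under 0.05, where 66.2% of all genes tested were called (33.6% higher and 32.6% lower). In D395A against WT, 2 members were higher and 8 lower, where 70.3% of all genes were called (36.3% higher and 34.0% lower). The median log2 fold change of the 10 members was -0.29 in KO and -0.52 in D395A, beside 0.01 and 0.02 over all genes tested. With so many genes called, the counts of 9 and 10 members called are not read as a property of these genes. The 2 comparisons share the WT libraries. Without WT replicate 1, KO against WT called 5 members in place of 9, and these were Suz12, Ezh2, Eed, Ezh1 and Cbx7.

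**Figure D1:**
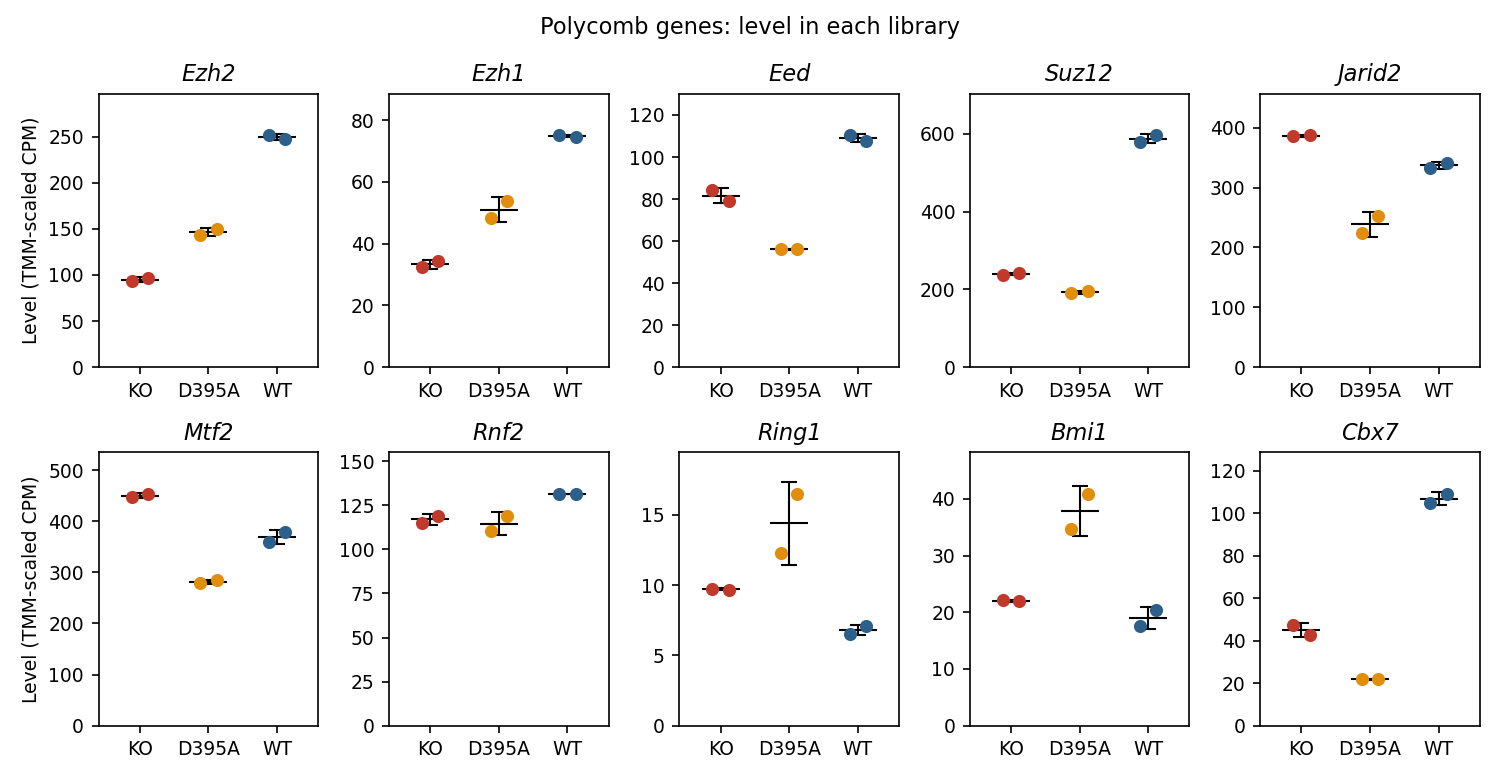
Level of each of the 10 Polycomb genes in the 2 libraries of KO, D395A and WT (TMM-scaled CPM, linear axes from 0). Points are libraries, and bars give the mean ± SD (n = 2). Suz12, Ezh2, Ezh1, Eed and Cbx7, and slightly Rnf2, were lower in both mutant lines than in WT, whereas Ring1 and Bmi1 were highest in D395A.

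The 250 bases before the transcription start are shown for the 4 genes that fell most in D395A and for Bmi1, which rose there, to set their promoters side by side. They come from RefSeq (GRCm38.p6) and run 5′ to 3′ on the gene's strand. The starts are those of RefSeq, which for Ezh2, Eed and Cbx7 lie inside the gene as GENCODE draws it. Capitals mark matches, on either strand, to CCAAT (the CCAAT box), TTTCCCGC and TTTGGCGC (forms of the E2F site), CACGTG (the E-box) and TATAAA (the TATA box), and none of the matches overlapped another.
Suz12, GRCm38.p6, chr11:79992856-79993105, plus strand: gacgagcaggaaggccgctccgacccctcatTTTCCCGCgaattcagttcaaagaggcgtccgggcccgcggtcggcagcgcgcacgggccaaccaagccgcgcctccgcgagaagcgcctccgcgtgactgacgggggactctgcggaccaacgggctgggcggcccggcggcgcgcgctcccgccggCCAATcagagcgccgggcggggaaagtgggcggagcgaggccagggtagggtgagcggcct
Ezh2, GRCm38.p6, chr6:47595031-47595280, minus strand: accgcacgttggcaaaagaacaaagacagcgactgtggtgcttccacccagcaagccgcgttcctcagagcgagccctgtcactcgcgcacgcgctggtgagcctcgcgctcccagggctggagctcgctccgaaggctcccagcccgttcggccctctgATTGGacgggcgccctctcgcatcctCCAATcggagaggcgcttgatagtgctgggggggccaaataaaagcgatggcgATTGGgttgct
Eed, GRCm38.p6, chr7:89980977-89981226, minus strand: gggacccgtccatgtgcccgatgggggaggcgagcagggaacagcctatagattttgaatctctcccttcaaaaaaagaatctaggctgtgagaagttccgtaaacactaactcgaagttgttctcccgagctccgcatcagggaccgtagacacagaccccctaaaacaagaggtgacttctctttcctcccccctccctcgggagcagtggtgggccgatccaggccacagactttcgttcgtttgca
Cbx7, GRCm38.p6, chr15:79932647-79932896, minus strand: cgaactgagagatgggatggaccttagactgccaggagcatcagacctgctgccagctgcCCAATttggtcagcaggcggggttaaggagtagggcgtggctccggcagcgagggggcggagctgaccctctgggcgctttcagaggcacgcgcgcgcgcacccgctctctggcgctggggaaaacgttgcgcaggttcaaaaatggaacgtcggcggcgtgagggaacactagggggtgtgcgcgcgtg
Bmi1, GRCm38.p6, chr2:18676768-18677017, plus strand: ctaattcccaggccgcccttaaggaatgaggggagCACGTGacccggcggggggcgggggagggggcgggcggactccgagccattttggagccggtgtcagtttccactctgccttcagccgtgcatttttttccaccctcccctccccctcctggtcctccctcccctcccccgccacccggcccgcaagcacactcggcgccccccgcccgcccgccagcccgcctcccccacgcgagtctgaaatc
Among all 32851 promoter windows of this length in the table, 33.85% held CCAAT, 0.895% TTTCCCGC, 0.417% TTTGGCGC, 6.02% CACGTG and 12.4% TATAAA. Ezh2 held CCAAT at 3 places, at 90, 64 and 11 bases before the start. Suz12 held it at 61 and Cbx7 at 190 bases before the start, and Suz12 also held TTTCCCGC at 219. Bmi1 held CACGTG at 215 bases before the start, and Eed held none of these motifs. CpG pairs numbered 37 in Suz12, 23 in Ezh2, 23 in Cbx7, 21 in Bmi1 and 12 in Eed, with a median of 6 over all windows. Among the members not shown, windows of Jarid2 and Mtf2 held CCAAT, Jarid2 also held TATAAA, and Ezh1, Ring1 and Rnf2 held no match. A match is a description of the letters, and these data hold no measure of binding. A link between motifs and levels was not tested.

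SUZ12 is the scaffold of PRC2 that holds the other subunits together. Suz12 had 238 and 242 CPM in KO, 190 and 195 CPM in D395A, and 580 and 596 CPM in WT. All 4 mutant libraries lay below both WT libraries. For none of the 10 members did a mutant line overlap WT, and the share of all genes without overlap was not counted. The log2 fold change was -1.29 ± 0.06 in KO (SE, adjusted p = 3e-09) and -1.61 ± 0.06 in D395A (adjusted p = 3.9e-10), which left 40.9% and 32.7% of the WT level. The gene lies on the plus strand of chromosome 11 (GRCm38, 79993106 to 80034123). Relative to the median of chromosome 11 the change was -0.88 in KO and -1.12 in D395A, and the part of the chromosome's shift in it was not tested.

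EZH2 is the main H3K27 methyltransferase of proliferating cells. Ezh2 had 93.0 and 96.5 CPM in KO, 144 and 149 CPM in D395A, and 251 and 247 CPM in WT. Ezh2 was lowest in KO, with D395A between KO and WT. Its log2 fold change was -1.40 ± 0.06 in KO (adjusted p = 1.3e-09), the largest fall of any member there, and -0.77 ± 0.06 in D395A (adjusted p = 2e-07). Ezh2 is encoded on the minus strand of chromosome 6 (47530139 to 47595341), whose median shift was -0.02 in KO and 0.16 in D395A.

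EED binds the trimethylated lysine and thereby stimulates the enzyme. Eed had 84.2 and 79.0 CPM in KO, 56.0 and 56.3 CPM in D395A, and 110 and 108 CPM in WT. Eed was lowest in D395A, with KO between it and WT. On the log2 scale the change was -0.42 ± 0.06 in KO (adjusted p = 5.1e-05) and -0.96 ± 0.06 in D395A (adjusted p = 3.2e-08). Eed is encoded on the minus strand of chromosome 7 (89954654 to 89980983), and 6.82% of its exon bases overlap an exon on the opposite strand.

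EZH1, the paralog of EZH2, is a weaker methyltransferase that is better known from cells that no longer divide. Ezh1 had 32.3 and 34.4 CPM in KO, 48.2 and 53.9 CPM in D395A, and 75.1 and 74.7 CPM in WT. Like Ezh2 it was lowest in KO and between KO and WT in D395A. Its log2 fold change was -1.17 ± 0.07 in KO (adjusted p = 1.9e-08) and -0.55 ± 0.07 in D395A (adjusted p = 1.4e-05). The gene lies on the minus strand of chromosome 11 (101191115 to 101226463). Against the chromosome's median the change was -0.75 in KO but -0.06 in D395A, so its fall in D395A was about the size of the shift of all genes there.

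**Figure D2:**
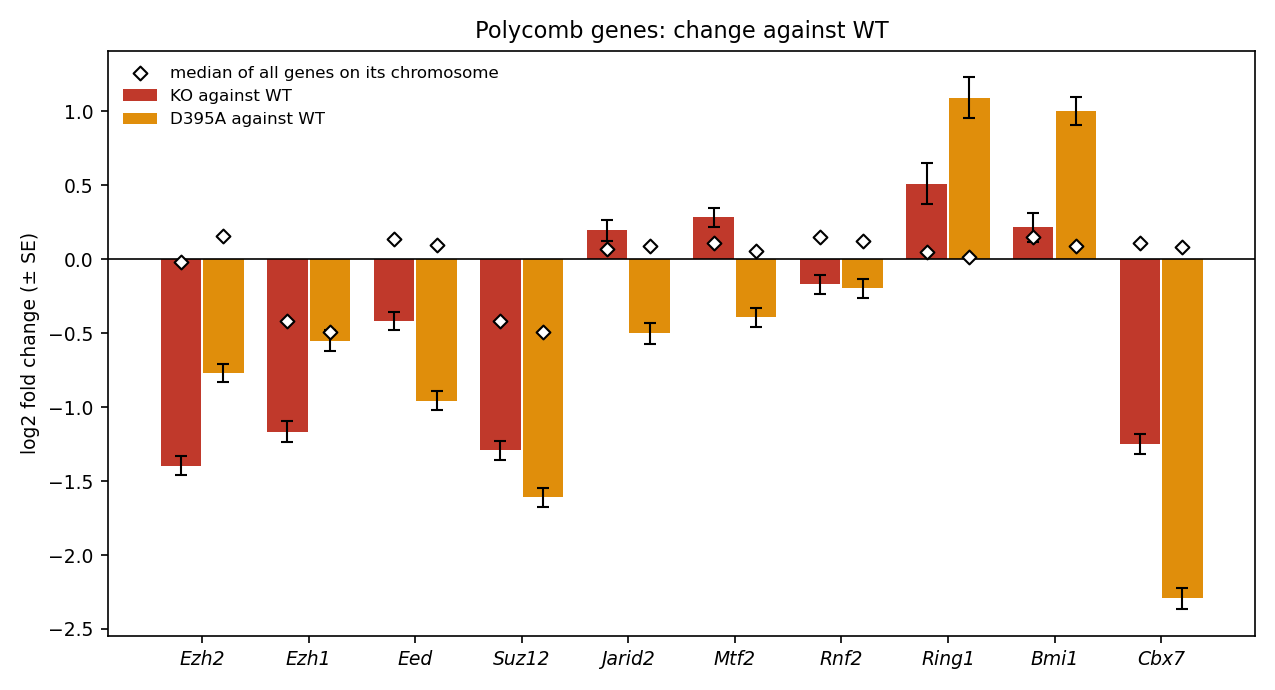
Log2 fold change (± SE of the fit) of each gene in KO against WT and D395A against WT. Diamonds mark the median of all tested genes on the same chromosome, which was -0.42 in KO and -0.49 in D395A for Suz12 and Ezh1 and between -0.02 and 0.16 for the other 8 genes. Cbx7 in D395A had the lowest value (-2.29) and Ring1 in D395A the highest (1.09).

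JARID2 is a catalytically inactive member of the Jumonji family that recruits PRC2 and is itself methylated by it. Jarid2 had 385 and 387 CPM in KO, 224 and 253 CPM in D395A, and 333 and 341 CPM in WT. KO lay slightly above WT and D395A below it. Jarid2 differed from WT by a log2 fold change of 0.20 ± 0.07 in KO (adjusted p = 0.026) and -0.50 ± 0.07 in D395A (adjusted p = 3.9e-05). The call in KO ended when any single KO or WT library was left out (adjusted p from 0.07 to 0.18), and with TMM factors from genes outside chromosomes 8 and 11 (adjusted p = 0.08). Jarid2 lies on the plus strand of chromosome 13 (44729474 to 44921643).

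MTF2 (PCL2) is a Polycomb-like protein that binds unmethylated CpG-rich DNA. Mtf2 had 447 and 454 CPM in KO, 279 and 285 CPM in D395A, and 360 and 380 CPM in WT. The groups stood in the same order as for Jarid2, with KO highest and D395A lowest. Mtf2 differed from WT by a log2 fold change of 0.28 ± 0.06 in KO (adjusted p = 0.0016, and 0.053 without WT replicate 1) and -0.39 ± 0.06 in D395A (adjusted p = 0.00012). Mtf2 lies on the plus strand of chromosome 5 (108065674 to 108109004), and Tmed5 on the opposite strand overlaps 6.93% of its exon bases.

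The other accessory subunits of PRC2 moved in both directions. Their counts stand beside 33.6% of all genes called higher and 32.6% lower in KO, and 36.3% and 34.0% in D395A. Of 8 listed genes, 7 were found and passed the filter, of which 2 rose and 2 fell in KO and 2 rose and 2 fell in D395A (median 0.06 and -0.03). Epop, which links PRC2 to elongins, had 699 and 642 CPM in KO, 326 and 304 CPM in D395A, and 170 and 172 CPM in WT. That is a log2 fold change of 1.97 ± 0.07 in KO (adjusted p = 2.7e-10) and 0.88 ± 0.07 in D395A (adjusted p = 2.1e-07), and the gene lies on chromosome 11. Phf19, an alternative to Mtf2 in PRC2, had 1.11 and 1.27 CPM in KO, 2.09 and 2.05 CPM in D395A, and 6.02 and 6.45 CPM in WT. It fell by 2.39 ± 0.21 in KO and 1.59 ± 0.20 in D395A on the log2 scale (adjusted p = 6e-07 and 1.5e-05). Phf1, the other alternative, stood at 6.77 ± 0.28 CPM in KO (adjusted p = 0.69) and rose to 8.95 ± 0.32 CPM in D395A (adjusted p = 0.005), against 6.49 ± 0.49 CPM in WT, but exons on the opposite strand overlap 39.3% of its exon bases. Aebp2, found with Jarid2 in the same form of PRC2, stood at 142 ± 3.12 CPM in KO, where its adjusted p was 0.014 but between 0.09 and 0.11 without KO replicate 2 or either WT library. The Aebp2 call in KO also ended with TMM factors from genes outside chromosomes 8 and 11 (adjusted p = 0.056). In D395A Aebp2 stood at 128 ± 2.23 CPM, against 125 ± 0.99 CPM in WT (adjusted p = 0.60). Rbbp4, a histone chaperone shared with other complexes, fell slightly in KO (-0.34 ± 0.07, adjusted p = 0.00062) and in D395A (-0.20 ± 0.07, adjusted p = 0.019, but 0.16 and 0.072 without WT replicates 1 and 2), and exons on the opposite strand overlap 18.05% of its exon bases.

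RNF2 (RING1B) is the main ubiquitin ligase of PRC1 in these cells. Rnf2 had 115 and 119 CPM in KO, 110 and 119 CPM in D395A, and 132 CPM in both WT libraries. All 4 mutant libraries lay a little below WT. The log2 fold change was -0.17 ± 0.06 in KO (adjusted p = 0.031) and -0.20 ± 0.06 in D395A (adjusted p = 0.014). Leaving out either WT library ended both calls (adjusted p = 0.15 each time in KO, and 0.082 and 0.085 in D395A), as did leaving out either KO library for KO (0.18 and 0.062) and scaling by library totals without Rn45s for KO (0.063). The gene lies on the minus strand of chromosome 1 (151458004 to 151500955).

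RING1 (RING1A), the paralog that can replace RNF2 in part, was the least abundant member in WT. Ring1 had 9.75 and 9.65 CPM in KO, 12.3 and 16.5 CPM in D395A, and 6.54 and 7.08 CPM in WT. Both mutant groups lay above WT, and the D395A libraries differed most between themselves. As a log2 fold change this was 0.51 ± 0.14 in KO (adjusted p = 0.006, and 0.057 without WT replicate 1) and 1.09 ± 0.14 in D395A (adjusted p = 1.3e-05). These values rest on 257 to 595 counts per library. Ring1 lies on the minus strand of chromosome 17 (34020792 to 34024680).

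BMI1 (PCGF4) is one of the PCGF proteins that pair with RNF2 or RING1 in canonical PRC1, and is known for repressing the Cdkn2a locus. Bmi1 had 22.1 and 21.9 CPM in KO, 34.7 and 40.9 CPM in D395A, and 17.7 and 20.3 CPM in WT. Its D395A libraries lay well above all others, while KO and WT were close. The log2 fold change was 1.00 ± 0.09 in D395A (adjusted p = 9.5e-07) and 0.22 ± 0.10 in KO (adjusted p = 0.066, and from 0.021 to 0.42 over the alternatives). The KO value passed the test under 8 of 16 alternatives, among them the replicate block (adjusted p = 0.037), both other filters (0.021 and 0.029), library totals without Rn45s (0.027) and only the 2 groups compared (0.024). It also passed without WT replicate 2 (0.042) and without D395A replicate 1 or 2 (0.037 and 0.041). Pcgf2 (MEL18), which takes the same place in PRC1 and lies on chromosome 11, had 139 and 134 CPM in KO, 84.0 and 97.4 CPM in D395A, and 115 and 106 CPM in WT. It rose in KO (0.31 ± 0.08, adjusted p = 0.0028, and 0.068 without WT replicate 2) and fell in D395A (-0.28 ± 0.08, adjusted p = 0.0062, and 0.092 without WT replicate 1). Cdkn2a itself, named for this link after its values were seen, stood at 12.6 ± 0.83 CPM in KO and 15.1 ± 1.48 CPM in D395A, against 13.7 ± 0.72 CPM in WT (adjusted p = 0.32 and 0.29). Bmi1 lies on the plus strand of chromosome 2 (18677018 to 18686629).

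CBX7 reads trimethylated H3 lysine 27 through its chromodomain and anchors canonical PRC1 in self-renewing embryonic stem cells. Cbx7 had 47.3 and 42.8 CPM in KO, 21.9 and 21.8 CPM in D395A, and 105 and 109 CPM in WT. Cbx7 was lowest in D395A, with KO between D395A and WT. The log2 fold change was -1.25 ± 0.07 in KO (adjusted p = 6.4e-09) and -2.29 ± 0.07 in D395A (adjusted p = 5.5e-11), which left 42.1% and 20.4% of the WT level. Cbx2, a CBX protein better known from differentiating cells whose gene lies on chromosome 11, stood at 43.6 ± 3.50 CPM in KO (adjusted p = 0.33) and 53.8 ± 6.33 CPM in D395A, against 46.7 ± 1.57 CPM in WT. Its adjusted p in D395A was 0.043, but 0.46 without D395A replicate 2 and 0.24 and 0.10 without either WT library. The call also ended with TMM factors from genes outside chromosomes 8 and 11 (0.18), with DESeq2 (0.11) and with RLE scaling (0.054). Cbx7 lies on the minus strand of chromosome 15 (79915807 to 79971119).

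In rank of level per kb of exon (RPKM), which allows genes to be compared, the order of the members changed with the line. Mtf2 stood first in KO (79.0 ± 0.88 RPKM) and D395A (49.5 ± 0.68), followed by Suz12 (48.6 ± 0.58 in KO and 38.9 ± 0.83 in D395A), whereas in WT Suz12 came first (119 ± 2.40) and Mtf2 came after it (64.9 ± 2.41). Ezh2 was 6th in KO (14.2 ± 0.38 RPKM) and 5th in D395A (21.9 ± 0.61), against 3rd in WT (37.3 ± 0.46). Cbx7 was 7th in KO (6.95 ± 0.50 RPKM) and 10th and last in D395A (3.37 ± 0.01), against 7th in WT (16.5 ± 0.50). Ring1 was last in KO (2.99 ± 0.02 RPKM) and in WT (2.10 ± 0.12), and 9th in D395A (4.44 ± 0.91). By this measure, Bmi1 and Ezh1 changed places. Bmi1 stood above Ezh1 in KO (5.54 ± 0.04 and 4.48 ± 0.20 RPKM) and in D395A (9.52 ± 1.11 and 6.86 ± 0.54), and below it in WT (4.78 ± 0.48 and 10.1 ± 0.04). The library ranges of neighbours in each group's order did not overlap, but Rnf2 (27.8 ± 1.55 RPKM) and Jarid2 (24.5 ± 2.08) in D395A differed by less than their added SDs. Exon lengths were those of all annotated exons of a gene, so differences between genes also depend on which transcripts are in use. They were 7440 bases for Ezh1 and 3974 for Bmi1, against 4207 and 3594 in the longest coding transcripts. For Jarid2 and Suz12 they were 9715 and 4945, against 5997 and 4373, and for Ezh2 6678, against 2787. The exchange of Bmi1 and Ezh1, and the place of Suz12 next after Mtf2 in the mutant lines, therefore depend on the length taken. So does the place of Ezh2 in D395A, and a fall of its rank there is not established.

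**Figure D3:**
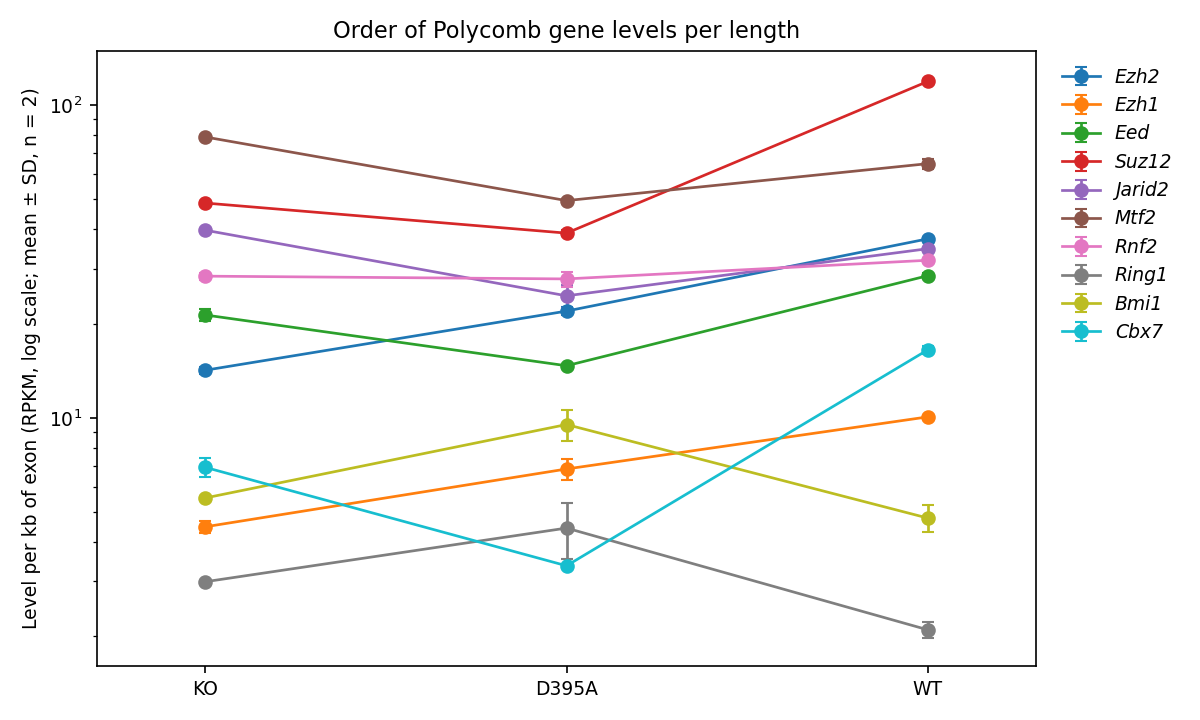
Level per kb of exon (RPKM, log axis, mean ± SD, n = 2) of the 10 genes in KO, D395A and WT. Lines only join the points of a gene. Suz12 was the highest in WT (119 RPKM) and below Mtf2 in KO and D395A, and Cbx7 was lowest in D395A (3.37 RPKM).

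Ratios of partner genes within a library do not depend on how libraries are scaled, though their size depends on the exon lengths used. Suz12, Ezh1, Pcgf2 and Cbx2 lie on chromosome 11, whose median was -0.42 in KO and -0.49 in D395A, and their partners do not. The part of that shift in the ratios was not tested. With 2 libraries against 2, an exact two-sided permutation test cannot go below 0.333, so the ratios are given as values. Mtf2 per Suz12 was 1.63 in both KO libraries and 1.28 and 1.26 in D395A, against 0.539 and 0.552 in WT. Jarid2 per Suz12 was 0.824 and 0.814 in KO and 0.602 and 0.658 in D395A, against 0.293 and 0.291 in WT. Jarid2 per Mtf2 kept close to one value, at 0.506 and 0.501 in KO and 0.471 and 0.521 in D395A, against 0.543 and 0.527 in WT. Thus Jarid2 and Mtf2 stood higher relative to Suz12 in both mutant lines, while their own ratio moved little. Ezh1 per Ezh2 was 0.312 and 0.320 in KO and 0.301 and 0.324 in D395A, against 0.268 and 0.271 in WT. Eed per Ezh2 was 1.58 and 1.43 in KO, well above the other lines, and 0.681 and 0.658 in D395A, against 0.766 and 0.759 in WT. Suz12 per Ezh2 was 3.46 and 3.39 in KO and lowest in D395A at 1.78 and 1.77, against 3.11 and 3.26 in WT. In PRC1, Ring1 per Rnf2 was 0.108 and 0.103 in KO and 0.142 and 0.176 in D395A, against 0.0632 and 0.0685 in WT, so Rnf2 remained far above Ring1 in every library. Bmi1 per Pcgf2 was 0.141 and 0.145 in KO, 0.367 and 0.373 in D395A, and 0.136 and 0.171 in WT. Cbx7 per Cbx2 was 0.755 and 0.609 in KO and 0.292 and 0.245 in D395A, against 1.507 and 1.499 in WT. By these lengths Cbx7 exceeded Cbx2 per kb in WT and not in the mutant lines. The length used for Cbx7 was 6487 bases, against 3388 in its longest coding transcript, so which gene stood higher in KO depends on it.

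**Figure D4:**
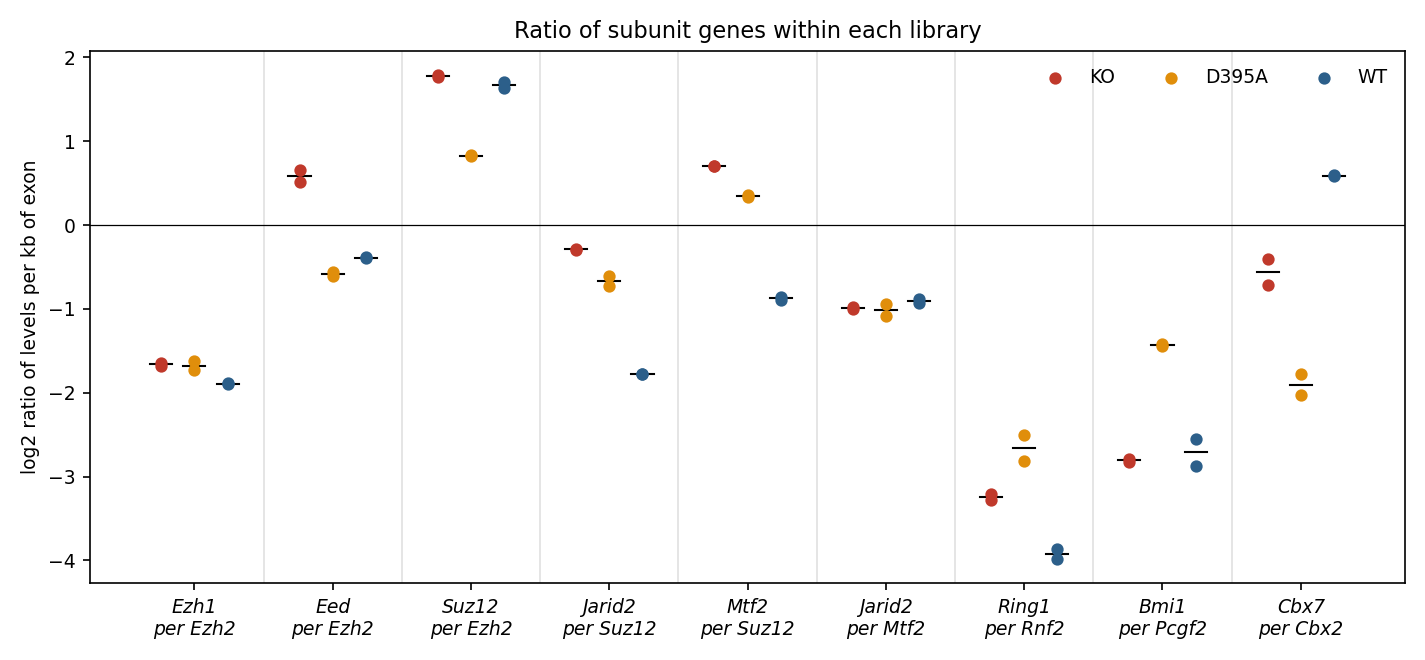
Log2 ratio of the levels per kb of exon of 2 partner genes in each library of KO, D395A and WT, with a short line at the group mean. Mtf2 and Jarid2 per Suz12 were higher in both mutant lines than in WT, Eed per Ezh2 was highest in KO, and Cbx7 per Cbx2 was lowest in D395A.

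The mutant lines differed from each other as well. In D395A against KO, 4 members were higher and 5 lower, where 50.4% of all genes were called (26.5% higher and 23.8% lower). Both EZH genes stood higher in D395A, Ezh2 by 0.63 ± 0.06 (adjusted p = 3.3e-06) and Ezh1 by 0.62 ± 0.07 (adjusted p = 1.6e-05) on the log2 scale. Suz12 and Eed, their partners, were lower in D395A, with log2 fold changes of -0.32 ± 0.06 (adjusted p = 0.0011) and -0.54 ± 0.06 (adjusted p = 1.5e-05). Jarid2 and Mtf2 were lower in D395A by similar amounts, at -0.70 ± 0.07 and -0.68 ± 0.06 (adjusted p = 4.3e-06 and 2.2e-06). Cbx7 had the largest difference at -1.05 ± 0.07 (adjusted p = 1.5e-07), and Bmi1 was higher in D395A by 0.79 ± 0.09 (adjusted p = 1.8e-05). Ring1 was higher by 0.58 ± 0.13 (adjusted p = 0.003), or 0.34 without D395A replicate 2 (adjusted p = 0.065). For Rnf2 the difference was -0.03 ± 0.06 (adjusted p = 0.74), and its libraries overlapped between the lines.

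Other genes of the Polycomb system moved both ways in both lines. Over all genes tested, 33.6% were called higher and 32.6% lower in KO, and 36.3% and 34.0% in D395A. Counts of calls in this list and the lists after it are therefore not read as a property of a list. Of 12 genes of canonical PRC1 and its associated SAM and MBT domain proteins, 6 rose and 3 fell in KO (median 0.21), and 4 rose and 5 fell in D395A (median -0.11). Sfmbt2, an MBT domain protein related to the Drosophila Polycomb protein Sfmbt, had 14.6 ± 0.18 CPM in KO and 6.03 ± 0.02 CPM in D395A, against 98.7 ± 1.34 CPM in WT. Its log2 fold change was -2.76 ± 0.07 and -4.03 ± 0.08 (adjusted p = 1.8e-11 and 4e-12). Scml2, an X-linked PRC1 partner best known from the germline, had 8.66 ± 0.43 CPM in KO and 2.27 ± 0.32 CPM in D395A, against 53.7 ± 1.25 CPM in WT (-2.63 ± 0.09 and -4.54 ± 0.11). Phc2, one of the polyhomeotic proteins that polymerise canonical PRC1, rose to 50.8 ± 2.45 CPM in KO, with 80.2 ± 1.90 CPM in D395A, against 21.9 ± 1.56 CPM in WT (1.21 ± 0.07 and 1.87 ± 0.07).

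Of 18 genes of variant PRC1, which works without a CBX reader, 10 rose and 6 fell in KO (median 0.20), and 7 rose and 8 fell in D395A (median -0.07). PCGF1, PCGF5 and PCGF6 each define a form of variant PRC1. Pcgf1 changed by -1.54 ± 0.10 in KO and -0.82 ± 0.10 in D395A, Pcgf5 by -1.38 ± 0.10 and -1.02 ± 0.10, and Pcgf6 by -0.77 ± 0.06 and -0.72 ± 0.06. Bcorl1, a partner of PCGF1, rose by 0.33 ± 0.08 and 0.90 ± 0.08. All of these passed the test (adjusted p of 0.0028 or lower).

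Among 9 subunits of the complex that removes ubiquitin from histone H2A (PR-DUB), 6 rose and 3 fell in each line (median 0.36 in KO and 0.48 in D395A). Of all genes tested, 66.2% were called in KO and 70.3% in D395A. Asxl1, a cofactor of the deubiquitinase BAP1, rose by 0.69 ± 0.07 in KO and 0.48 ± 0.07 in D395A. Asxl3, another such cofactor, rose to 3.08 ± 0.07 CPM in KO (0.95 ± 0.16) and reached 15.3 ± 0.51 CPM in D395A (3.26 ± 0.15), against 1.59 ± 0.15 CPM in WT. Foxk1, a DNA-binding partner, rose by 0.74 ± 0.08 in KO and 0.49 ± 0.08 in D395A, and Mbd5 rose by 0.30 ± 0.08 and 0.70 ± 0.08. Mbd6 changed by -0.79 ± 0.09 and -0.34 ± 0.09, and Ogt, the O-GlcNAc transferase, by -0.37 ± 0.07 and -0.59 ± 0.07.

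Among 9 genes that act against Polycomb, 8 passed the filter, and Men1 was listed at 0 in every library. Of the 8, 4 rose and 2 fell in KO (median 0.16), and 5 rose and 2 fell in D395A (median 0.20). Kmt2c, an H3 lysine 4 methyltransferase, fell by 0.58 ± 0.07 in KO and 0.80 ± 0.08 in D395A, and Kmt2a changed by -0.41 ± 0.08 and -0.34 ± 0.08. Nsd1, an H3 lysine 36 methyltransferase, rose by 0.51 ± 0.07 in D395A, and its 0.22 ± 0.07 in KO (adjusted p = 0.017) missed the threshold without KO replicate 1 (adjusted p = 0.067) and without either WT library (0.084 and 0.17). The Nsd1 call in KO also ended with TMM factors from genes outside chromosomes 8 and 11 (adjusted p = 0.053). Kdm6a, which removes the mark of PRC2, rose by 0.39 ± 0.06 in D395A and stood at 0.10 ± 0.06 in KO (adjusted p = 0.21). Ash1l rose by 0.30 ± 0.06 in KO and stood at 0.13 ± 0.06 in D395A (adjusted p = 0.07, and 0.036 without D395A replicate 1).

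Developmental regulators that are textbook Polycomb targets in embryonic stem cells were low in total in all 3 groups. The 29 listed genes summed to 77.6 and 83.6 CPM in KO, 117 and 107 CPM in D395A, against 76.4 and 74.2 CPM in WT. The filter kept 24 of them, some through a single group, so the counts describe and do not support a direction. Of the 24, 4 rose and 5 fell in KO, and 11 rose and 6 fell in D395A, with medians of 0.20 in KO and 0.46 in D395A. With genes at 0 counts in a group set to a bound from 3 counts over the group, and left out where both groups were at or under it, the KO median was 0.03 and the D395A median 0.46. Msx2, a homeobox factor, rose to 10.5 ± 0.38 CPM in KO (3.80 ± 0.18) and reached 4.79 ± 0.03 CPM in D395A (2.66 ± 0.19), against 0.750 ± 0.09 CPM in WT. Foxa2, an endoderm factor, rose to 0.947 ± 0.495 CPM in KO (3.14 ± 0.49, or 2.48 without KO replicate 2) and 21.3 ± 1.61 CPM in D395A (7.63 ± 0.32), against 0.106 ± 0.05 CPM in WT. Lhx2, a forebrain factor, rose by 1.32 ± 0.20 in KO and 1.62 ± 0.20 in D395A. T (Brachyury), a mesoderm factor, fell to 0.157 ± 0.10 CPM in KO, with 0.154 ± 0.10 CPM in D395A, against 4.13 ± 1.08 CPM in WT. Its log2 fold change was -4.68 ± 0.50 in KO (-5.52 without KO replicate 1) and -4.62 ± 0.51 in D395A (-5.54 without D395A replicate 2). T passed the filter only through WT, so these values do not support a direction. Eomes, another early lineage factor, fell by 0.70 ± 0.11 in KO and 3.02 ± 0.14 in D395A. Of the 29 genes, Gata4, Gata6, Foxa2, Sox17, Cdx2, Hand1, T and Pax6 also stand in the lists of markers of other cell types, and the part of such cells was not tested.

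**Figure D5:**
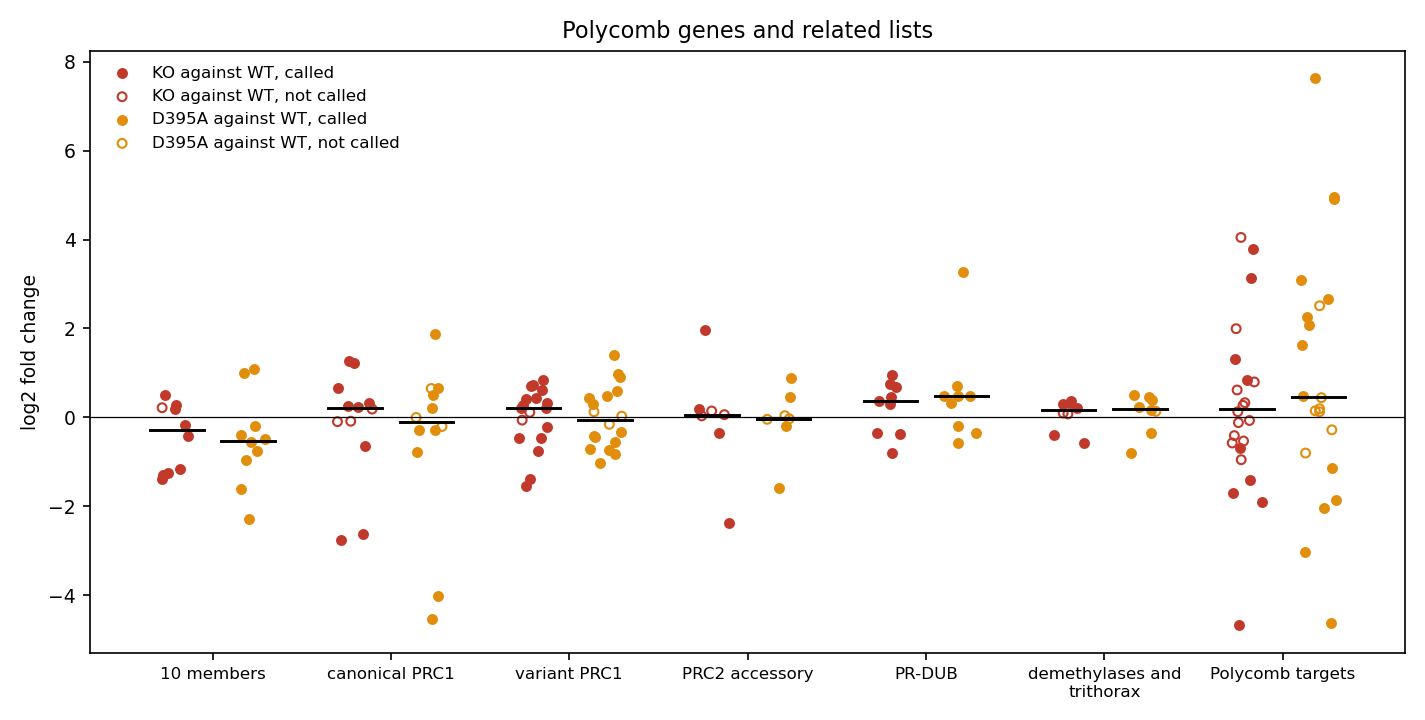
Log2 fold change against WT of the 10 members and of 6 lists of related genes, for KO and D395A. Filled points passed the test (adjusted p under 0.05), open points did not, lines are medians over all genes of a list that passed the filter, and genes at 0 counts in a group are not drawn. Medians of the 10 members were -0.29 and -0.52, and those of the other lists lay between -0.11 and 0.48.

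GGACT, the DNA form of a motif that METTL3 methylates, was counted on the sense strand of the longest coding transcript of each gene (GENCODE M21). The members held a median of 0.49 GGACT per kb, beside 1.06 per kb over 14407 tested genes. Jarid2 held 7 in 5997 bases (1.17 per kb) and Bmi1 4 in 3594 bases (1.11 per kb), and the other 8 members lay between 0 and 0.72 per kb. Suz12 held none in 4373 bases, as was the case for 19 of 4123 genes whose transcript was at least that long. Only this form was searched, so a transcript without it may hold other forms of the motif. The motif alone does not show methylation, which was not measured in these files.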

How the data were processed

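The authors deposited 1 table of gene counts per library. Per the submitters' processing notes, Trimmomatic 0.36, STAR 2.7 and HTSeq 0.11.2 were used with the mm10 build. Which annotation release was counted, and whether by strand, is not given in the sources used here. Values of genes with an antisense partner are therefore uncertain. The HTSeq summary lines (29.0% to 44.2% of each table's summed counts) were left out. All tests on the deposited counts used edgeR 4.0.16 (R 4.3.3). After filterByExpr and TMM scaling, the quasi-likelihood F test was run with all 6 libraries in 1 model without covariates (3 residual degrees of freedom, biological coefficient of variation 6.00%). P-values were adjusted by Benjamini-Hochberg over 15663 genes at a threshold of 0.05. Each mutant line was compared with WT, and D395A with KO, which tests whether the effects of the lines differ. The script was tested on simulated data. Positions, exon lengths and transcripts came from GENCODE M21 (GRCm38), which held 97.89% of the symbols.

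The alternatives were RLE scaling, TMM without chromosomes 8 and 11, library totals without Rn45s, 2 other filters, limma-voom (limma 3.58.1), DESeq2 1.42.0, robust dispersion, only the groups compared, a replicate block and each library left out. The members and lists were chosen with earlier results of these data known. Beyond the 10 members and Mettl3, the named genes are the 3 of each list with the smallest p in each comparison with WT and Pcgf2, Cbx2, Phf1, Phf19, Aebp2 and Epop, set beside Bmi1, Cbx7, Mtf2 and Jarid2. Depth was 22859491 to 40476809 gene counts per library, and 1 count equalled 0.0246 to 0.0426 CPM. The bound for a group at 0 counts covers counting error only.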

Additional observations from a re-analysis of the deposited data

Results flagged for a closer look

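For 9 of the 10 Polycomb genes the effects of the mutant lines differed, tested as D395A against KO in edgeR's quasi-likelihood fit, where the shared WT libraries drop out. Higher in D395A were Ezh1 (log2 difference 0.62), Ezh2 (0.63), Ring1 (0.58) and Bmi1 (0.79). Lower in D395A were Eed (-0.54), Suz12 (-0.32), Jarid2 (-0.70), Mtf2 (-0.68) and Cbx7 (-1.05). Ring1 was at 0.34 without D395A replicate 2 (adjusted p = 0.065), and 50.4% of all genes differed between the lines by the same test.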

How the results depend on the processing

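Ezh1, Ezh2, Eed, Suz12 and Cbx7 kept their direction and their side of the threshold in all 3 comparisons under all 16 alternatives. Over all members, 456 of 480 recomputed values kept both, 15 lost a call, 8 gained one and 1 changed sign. That was Rnf2 in D395A against KO, which ranged from -0.0908 (without D395A replicate 2) to 0.0267 (without D395A replicate 1) with 1 library left out. Among other named genes, Phf1 changed sign in KO against WT without WT replicate 2 (-0.0141, and up to 0.1392 without WT replicate 1) and Aebp2 in D395A against WT with TMM factors from genes outside chromosomes 8 and 11 (-0.044), and neither was called. With each library left out in turn, 5 to 10 members were called in KO against WT (5 without WT replicate 1), 9 to 10 in D395A against WT and 8 to 9 in D395A against KO. The genes called then ranged from 8523 to 10682, 9398 to 11364 and 6918 to 7151. With 1 library left in a group, that library is assumed to vary like the other groups. Deviations of same-numbered libraries gave r = 0.0096 for D395A and WT, 0.014 for KO and WT and -0.21 for KO and D395A. These values gave no sign of a positive pairing by number, but they cannot show whether libraries shared a batch. With the replicate block 10 members were called in KO against WT, 10 in D395A against WT and 9 in D395A against KO, and 10220, 10843 and 7832 genes. Of the Polycomb targets 17 were called in D395A against WT, and 6 under the stricter filter, which tests fewer genes. Among the members, precision is lowest for Ring1, with 257 to 595 counts per library, and low counts limit T (2 to 199) and Foxa2 (3 to 810) more.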
